A study of Homo sapiens with 240 samples.

Results

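The 9 genes described here are the insulin receptor INSR, the insulin-like growth factor 1 receptor IGF1R, the receptor adaptors IRS1, IRS2 and IRS4, the PI 3-kinase inhibitor PIK3IP1, and the forkhead transcription factors FOXO1, FOXO3 and FOXO4. They were taken by gene symbol from 5 deposited tables of transcript levels, and each table lists all 9 among 27234 genes. Levels are in TPM, a read count scaled to transcript length and to the library total. RNA with polyA tails was sequenced from 240 libraries of HEK 293T, a human cell line of embryonic kidney origin, in 80 groups of 3 replicates.

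Each table set an altered arm beside its own control arm, which makes 10 arms of HEK 293T cells grown in the same serum-containing medium. AMPK KO cells (AMPK knock out) stood beside WT cells. FNIP1 knock out cells given back a FNIP1 cDNA with its 5 AMPK phosphosites turned to alanine (SA5) stood beside the same knock out cells given back WT FNIP1, so both of these arms carry the knock out. TFEB/TFE3 double knock out cells (DKO), ERRa knock out cells (ESRRA KO) and cells with siRNA to PGC1A (siPGC1a) stood beside WT, WT and control siRNA (siCont) cells. All arms received 991, a synthetic activator of AMPK, for 2, 4, 8 and 16 h, and the TFEB/TFE3, ESRRA and PGC1A arms also for 24 h. The AMPK arms also received the mitochondrial poisons CCCP, phenformin and rotenone for 2, 4, 8 and 16 h. DMSO was sampled at 0 h alone, so an effect of a compound and one of time in culture cannot be told apart. The labels give no doses, number of clones or separate cultures, so p-values measure the spread between these libraries, which may be technical.

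Insulin and insulin-like growth factors bind the receptor kinases INSR and IGF1R, which phosphorylate the adaptors IRS1, IRS2 and IRS4. The adaptors recruit PI 3-kinase, which PIK3IP1 restrains at the membrane, and the lipid it makes activates AKT. AKT phosphorylates FOXO1, FOXO3 and FOXO4 and keeps them out of the nucleus, and FOXO factors that enter it drive genes of stress resistance, cell cycle arrest and growth factor signalling, INSR and IRS2 among them. AMPK, the energy sensor of the cell, also phosphorylates FOXO3. Levels of mRNA do not show phosphorylation or location.

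The altered genes and cell identity were checked first. PRKAA1, a catalytic subunit of AMPK, lay at 2.15 to 3.73 TPM in the AMPK KO libraries, against 6.03 to 10.6 TPM in WT libraries. PRKAA2, the other catalytic subunit, overlapped, at 2.55 to 4.87 TPM in AMPK KO libraries and 3.77 to 7.4 TPM in WT libraries. FNIP1 lay at 5.47 to 195 TPM in SA5 libraries, against 221 to 271 TPM in libraries with WT FNIP1. PPARGC1A lay at 0.015 to 0.107 TPM with siPGC1a, against 0.254 to 0.484 TPM with siCont, and ESRRA at 4.44 to 8.46 TPM in ESRRA KO libraries, against 8.01 to 12.7 TPM in WT libraries. TFEB ranged over 1.32 to 2.72 TPM in the libraries labelled DKO, against 1.24 to 3.56 TPM in WT libraries, and these overlap. TFE3 overlapped as well, at 7.18 to 10.2 TPM in the libraries labelled DKO and 8.81 to 14 TPM in WT libraries, so DKO below means the libraries labelled so. Of 6 markers of HEK293 cells, 4 had a median of at least 1 TPM, against 0 of 6 blood, 0 of 4 endothelial, 1 of 4 fibroblast (COL1A1, median 4.3 TPM), 1 of 4 keratinised epithelium (KRT10, 9.25 TPM) and 1 of 6 kidney markers (LRP2, 1.22 TPM). In these bulk samples, fewer cells of a type and less RNA per cell cannot be told apart. For 6 AMPK WT libraries (phenformin at 2 h and CCCP at 4 h) the library tag and the worded description disagree on compound or time. They were placed by the tag, which their deposited column also carries. Among the FNIP1 libraries, 2 of the SA5 arm stood apart from all others, replicate 1 under DMSO and replicate 1 with 991 at 8 h. In the first of these, genes with transcripts of 5000 bases or more differed from the other SA5 replicates by a median of -1.352 on the log2 scale, and genes under 2000 bases by -0.015. Both shared a fit with the cells carrying WT FNIP1, so the main FNIP1 results below are also given without these libraries.

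In the GRCh38 annotation the receptors lie at chromosome 19, 7112255 to 7294302 on the minus strand (INSR), and chromosome 15, 98648539 to 98964530 on the plus strand (IGF1R). The adaptors lie at chromosome 2, 226731317 to 226798790 (IRS1), chromosome 13, 109753837 to 109786567 (IRS2), and chromosome X, 108732497 to 108736377 (IRS4), and PIK3IP1 at chromosome 22, 31281593 to 31292534, all on the minus strand. FOXO1 lies at chromosome 13, 40555664 to 40666597 on the minus strand, FOXO3 at chromosome 6, 108559823 to 108684768 and FOXO4 at chromosome X, 71096149 to 71103534 on the plus strand.

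The promoters of 4 members are shown because the results below turn on their genes, chosen after the values were seen. They are RefSeq windows of 250 bases before to 50 after the transcription start on GRCh38.p14, where all 9 members had at least 1 window. Capitals mark matches, on either strand, to the FOXO motif GTAAACA or to the E-box core CACGTG, the core of the site that TFEB and TFE3 bind.
FOXO4 (chrX:71095601-71095900, plus strand): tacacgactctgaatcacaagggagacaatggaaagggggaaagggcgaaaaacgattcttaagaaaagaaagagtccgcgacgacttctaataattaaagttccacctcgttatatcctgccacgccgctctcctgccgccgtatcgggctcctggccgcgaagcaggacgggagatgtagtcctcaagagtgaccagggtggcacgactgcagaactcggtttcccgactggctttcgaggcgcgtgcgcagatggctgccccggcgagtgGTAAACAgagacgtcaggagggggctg
IRS4 (chrX:108736328-108736627, minus strand): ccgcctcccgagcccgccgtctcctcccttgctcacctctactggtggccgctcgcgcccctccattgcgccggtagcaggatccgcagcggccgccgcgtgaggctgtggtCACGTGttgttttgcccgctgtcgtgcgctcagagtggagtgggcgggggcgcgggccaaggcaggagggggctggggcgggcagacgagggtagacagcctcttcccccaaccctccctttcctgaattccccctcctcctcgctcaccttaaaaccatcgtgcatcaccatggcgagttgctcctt
INSR (chr19:7294365-7294664, minus strand): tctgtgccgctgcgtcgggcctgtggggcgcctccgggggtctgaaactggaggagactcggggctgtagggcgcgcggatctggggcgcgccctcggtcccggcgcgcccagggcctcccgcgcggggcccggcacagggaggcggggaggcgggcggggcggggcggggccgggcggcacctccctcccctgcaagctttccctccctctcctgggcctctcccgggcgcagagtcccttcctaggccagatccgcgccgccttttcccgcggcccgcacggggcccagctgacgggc
PIK3IP1 (chr22:31292439-31292738, minus strand): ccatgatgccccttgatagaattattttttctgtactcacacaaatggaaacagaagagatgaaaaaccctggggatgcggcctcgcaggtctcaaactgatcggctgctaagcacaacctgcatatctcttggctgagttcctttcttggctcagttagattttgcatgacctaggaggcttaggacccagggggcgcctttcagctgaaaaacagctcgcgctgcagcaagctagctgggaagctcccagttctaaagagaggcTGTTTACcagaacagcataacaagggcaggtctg
FOXO4 held GTAAACA from base 24 after its start, and PIK3IP1 held it on the other strand, printed as TGTTTAC, from base 17 after the start used in this window. The other PIK3IP1 window, counted from the start of the deposited transcript, held no match. IRS4 held CACGTG 138 bases before the start of its deposited transcript and no match in its other window, and IRS1 held CACGTG from base 36 after its start. The windows of FOXO4, INSR and IRS1 are likewise counted from other starts than those of the deposited transcripts. No letters of INSR matched, and the window was 78.3% G and C against a median of 58.7% over all windows. GTAAACA was found in 3.42%, CACGTG in 7.26% and the estrogen-related receptor motif TCAAGGTCA in 0.353% of all 35116 windows, and none of the matches above overlapped another. The matches describe letters, not binding sites.

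IRS4, an adaptor known for its high level in HEK293 cells, was the most abundant member, with a median of 130.02 TPM over the 240 libraries and a range of 1.99 to 238 TPM. FOXO3 followed with a median of 8.88 TPM (1.01 to 14.2 TPM), then FOXO4 with 6.62 TPM (2.84 to 16.7 TPM), IGF1R with 6.51 TPM (1.09 to 13.2 TPM) and FOXO1 with 5.28 TPM (1.66 to 9.37 TPM). INSR had a median of 3.32 TPM (1.28 to 6.58 TPM) and IRS2 of 1.77 TPM (0.712 to 5.26 TPM). PIK3IP1 at 1.24 TPM (0.304 to 4.01 TPM) and IRS1 at 0.667 TPM (0.044 to 1.36 TPM) were the lowest. The ranges of neighbours in this order overlapped in every case. IRS1, the main insulin adaptor of muscle and fat, failed the expression filter of 1 TPM in 3 libraries in the FNIP1, ESRRA and PGC1A tables, so 8 members were tested there. FOXO3 shares sequence with the near-identical copy FOXO3B, so its values are uncertain to that extent.

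Changes below are differences of mean log2(TPM + 1) with their standard error (SE), from limma, with p-values adjusted by Benjamini-Hochberg over all genes of a table. At 16 h, 991 left 3 members higher and 2 lower in AMPK KO cells, where 61.9% of all tested genes passed, and 5 higher and 3 lower in AMPK WT cells, where 68.8% passed. Phenformin left 6 members higher and 0 lower in AMPK KO cells (78.8% of all genes passed) and 8 higher and 0 lower in AMPK WT cells (80.1%). Under CCCP, 2 rose and 3 fell in AMPK KO cells (68.9%), and 3 rose and 4 fell in AMPK WT cells (70.7%). With rotenone, 3 rose and 4 fell in AMPK KO cells (63.2%), and 3 rose and 2 fell in AMPK WT cells (65.4%). In AMPK KO cells the median difference of the 9 members at 16 h was 0.01 with 991 (0.03 over all genes), 0.14 with phenformin (0.01), -0.27 with CCCP (0.05) and -0.04 with rotenone (0.03). In AMPK WT cells it was 0.15 with 991 (0.07 over all genes), 0.48 with phenformin (0.07), 0.01 with CCCP (0.09) and -0.04 with rotenone (0.03). Of the 9 members, 6 have transcripts of 5000 bases or more, and over all genes of that length the median with phenformin in AMPK WT cells was 0.444. Most genes moved in these courses, so a count of members past the test says little by itself.

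In the 8 other arms, 991 at 16 h left 5 of 8 members higher and 0 lower in SA5 cells (44.9% of all genes passed) and 1 higher and 0 lower in cells with WT FNIP1 (16.5%). Without the 2 SA5 libraries that stood apart, the counts were 4 higher and 2 lower in SA5 cells (49.2%) and 3 higher and 1 lower in cells with WT FNIP1 (53.6%). It left 4 higher and 2 lower in DKO cells (48.3%) and 7 higher and 2 lower in their WT cells (59%). ESRRA KO cells had 4 higher and 0 lower (44.3%), and their WT cells 4 higher and 1 lower (46.2%). The siPGC1a cells had 5 higher and 0 lower (51.9%), and siCont cells 6 higher and 0 lower (57%). The median difference over all genes was 0.36 in SA5, 0.07 in FNIP1 WT, 0.11 in DKO and 0.13 in TFEB/TFE3 WT cells. It was 0.08 in ESRRA KO, 0.07 in ESRRA WT, 0.14 in siPGC1a and 0.17 in siCont cells.

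**Figure D1:**
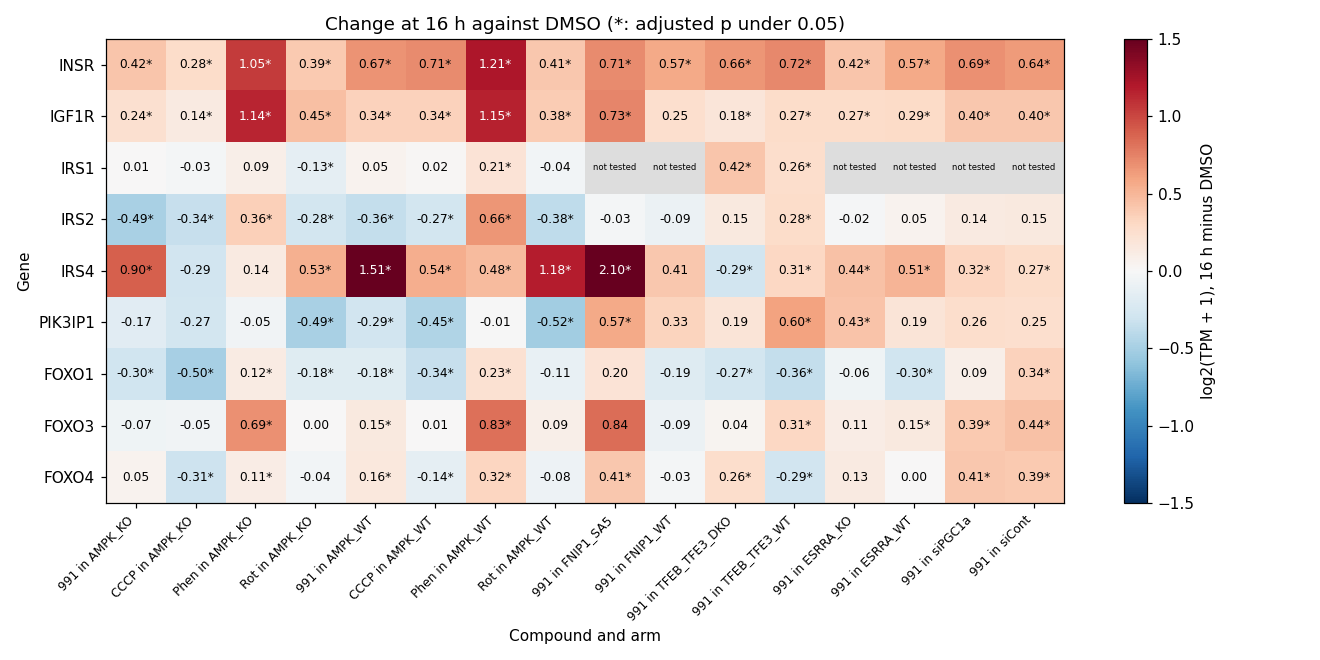
Change of the 9 genes at 16 h in the 16 courses, as the difference of mean log2(TPM + 1) between treated and DMSO libraries (colour scale, n = 3 each), with asterisks where limma's adjusted p was below 0.05 and grey where a gene was not tested. The INSR row is positive and marked in all 16 courses, and the FOXO1 row is mostly negative outside phenformin and the PGC1A arms.

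INSR rose in every arm that received 991. At 16 h its level was higher in 10 of 10 arms, by 0.42 to 0.72 on the log2 scale, and in each arm all 3 treated libraries lay above all 3 DMSO libraries. The share of all genes called higher was 34.8% in AMPK KO, 41.9% in AMPK WT, 39.2% in SA5, 11.6% in FNIP1 WT, 35.7% in DKO, 41.1% in TFEB/TFE3 WT, 31.5% in ESRRA KO, 31.2% in ESRRA WT, 39.2% in siPGC1a and 44.6% in siCont cells. In AMPK KO cells INSR reached 2.65, 2.56 and 2.79 TPM with 991 at 16 h, against 1.51, 1.89 and 1.85 TPM under DMSO (0.42 ± 0.06 SE, adjusted p = 2.2e-08). In AMPK WT cells it reached 3.65, 3.82 and 3.69 TPM with 991, against 1.95, 2.04 and 1.93 TPM under DMSO (0.67 ± 0.06, adjusted p = 1.8e-15). All AMPK KO libraries lay below all AMPK WT libraries, both with 991 and under DMSO. The rise was gradual: in AMPK WT cells it was 0.11, which did not pass, at 2 h, then 0.38, 0.77 and 0.67 at 4, 8 and 16 h.

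Without the 2 SA5 libraries that stood apart, INSR was higher by 0.46 in SA5 cells at 16 h (adjusted p = 1e-05), against 0.71 (adjusted p = 0.00099) with them. SA5 cells had 4.74, 4.20 and 3.90 TPM with 991, against 1.28, 3.03 and 2.67 TPM under DMSO, where the first value is from a library that stood apart. In cells with WT FNIP1 its 3 libraries with 991 lay at 5.06, 4.98 and 4.88 TPM, against 3.05, 3.04 and 2.96 TPM under DMSO (0.57 ± 0.15, adjusted p = 0.009, and 0.57 with adjusted p = 7.1e-08 without the 2 SA5 libraries). INSR was thus higher with 991 in cells carrying either form of FNIP1.

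INSR also rose with all 3 poisons in both AMPK arms by 16 h. In these arms phenformin gave its highest levels, with 4.81, 4.72 and 4.52 TPM in AMPK KO cells and 5.85, 5.95 and 5.79 TPM in AMPK WT cells at 16 h. These were 2.68 and 2.97 times the DMSO means, with log2 differences of 1.05 ± 0.06 (adjusted p = 6.6e-26) and 1.21 ± 0.06 (adjusted p = 2.4e-29). With CCCP at 16 h, INSR had 2.25, 2.43 and 2.34 TPM in AMPK KO cells (0.28 ± 0.06 over DMSO, adjusted p = 3.7e-05), and 4.09, 3.80 and 3.74 TPM in AMPK WT cells (0.71 ± 0.06, adjusted p = 6.5e-17). Rotenone gave 0.39 ± 0.06 in AMPK KO cells and 0.41 ± 0.06 in AMPK WT cells. Over the 70 single-time tests of a compound against DMSO, INSR was higher in 57 and lower in 0. In single tests 5.12% to 80.1% of all genes passed in either direction. The tests of an arm share its DMSO libraries, so they are not independent.

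**Figure D2:**
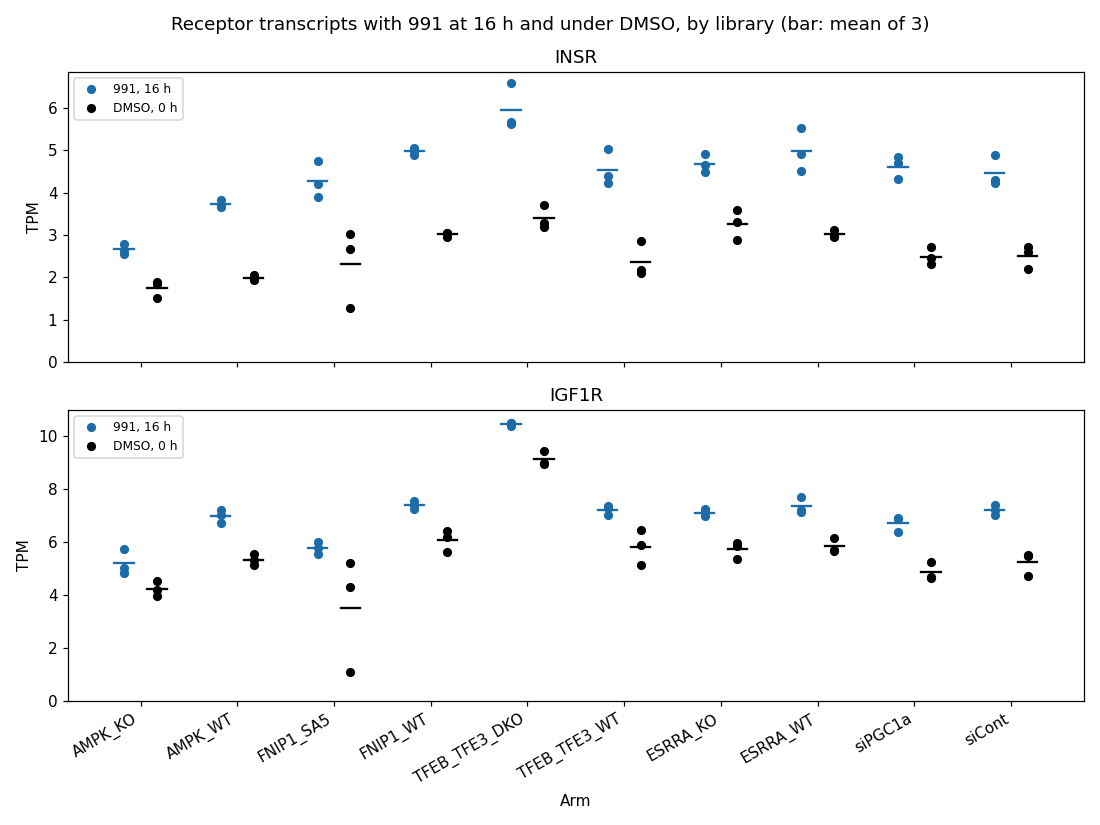
INSR and IGF1R in TPM per library (points, n = 3 a group) in the 10 arms, with 991 at 16 h in blue left of DMSO in black, and each altered arm left of its control. The treated INSR points lie above the DMSO points in every arm, and 1 SA5 library under DMSO lies far below the others for both genes.

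IGF1R, the receptor for insulin-like growth factors that pairs with INSR chains in hybrid receptors, rose with 991 as well. Its change was smaller than that of INSR at 16 h in 9 of 10 arms and at 8 h in 10 of 10. The other arm at 16 h was SA5 (0.73 against 0.71 for INSR), where INSR changed more without the 2 libraries that stood apart. At 4 h the IGF1R change was the larger in 5 of 10. Some gaps at 4 h were smaller than the SE, as in AMPK KO cells (0.23 for IGF1R, 0.22 for INSR), and the order was not tested. At 16 h IGF1R was higher in 9 of 10 arms, by 0.18 to 0.73, and the lowest of these, in DKO cells, did not pass without replicate 1 or 2. Cells with WT FNIP1 were the exception at 0.25 ± 0.25 (adjusted p = 0.6). Their libraries did not overlap, at 7.55, 7.37 and 7.22 TPM with 991 and 5.63, 6.41 and 6.16 TPM under DMSO, and without the 2 SA5 libraries that stood apart the same difference passed (adjusted p = 0.001). In SA5 cells the change was 0.73 with those libraries and 0.24 (adjusted p = 0.0034) without them. AMPK KO cells reached 4.82, 5.72 and 5.00 TPM with 991, against 3.97, 4.504 and 4.17 TPM under DMSO (0.24 ± 0.06, adjusted p = 0.00013). AMPK WT cells reached 7.02, 7.18 and 6.71 TPM, against 5.55, 5.11 and 5.29 TPM (0.34 ± 0.06, adjusted p = 2.8e-07).

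Phenformin also gave the highest IGF1R levels. At 16 h these were 10.97, 10.4 and 10.1 TPM in AMPK KO cells (1.14 ± 0.06 over DMSO, adjusted p = 5.4e-30) and 12.9, 13.2 and 12.9 TPM in AMPK WT cells (1.15 ± 0.06, adjusted p = 2.2e-30). These were 2.48 times the DMSO mean in AMPK KO cells and 2.45 times in AMPK WT cells. Transcript length moved with this result: over all genes in AMPK WT cells at 16 h of phenformin, the median difference was 0.444 for transcripts of 5000 bases or more, 0.122 for 2000 to 5000 bases and -0.179 below 2000 bases. INSR and IGF1R have transcripts of 9302 and 12212 bases in the deposited tables, and the part of length in their rise was not tested. Over the 70 single-time tests IGF1R was higher in 54 and lower in 0 (5.12% to 80.1% of all genes passed per test).

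**Figure D3:**
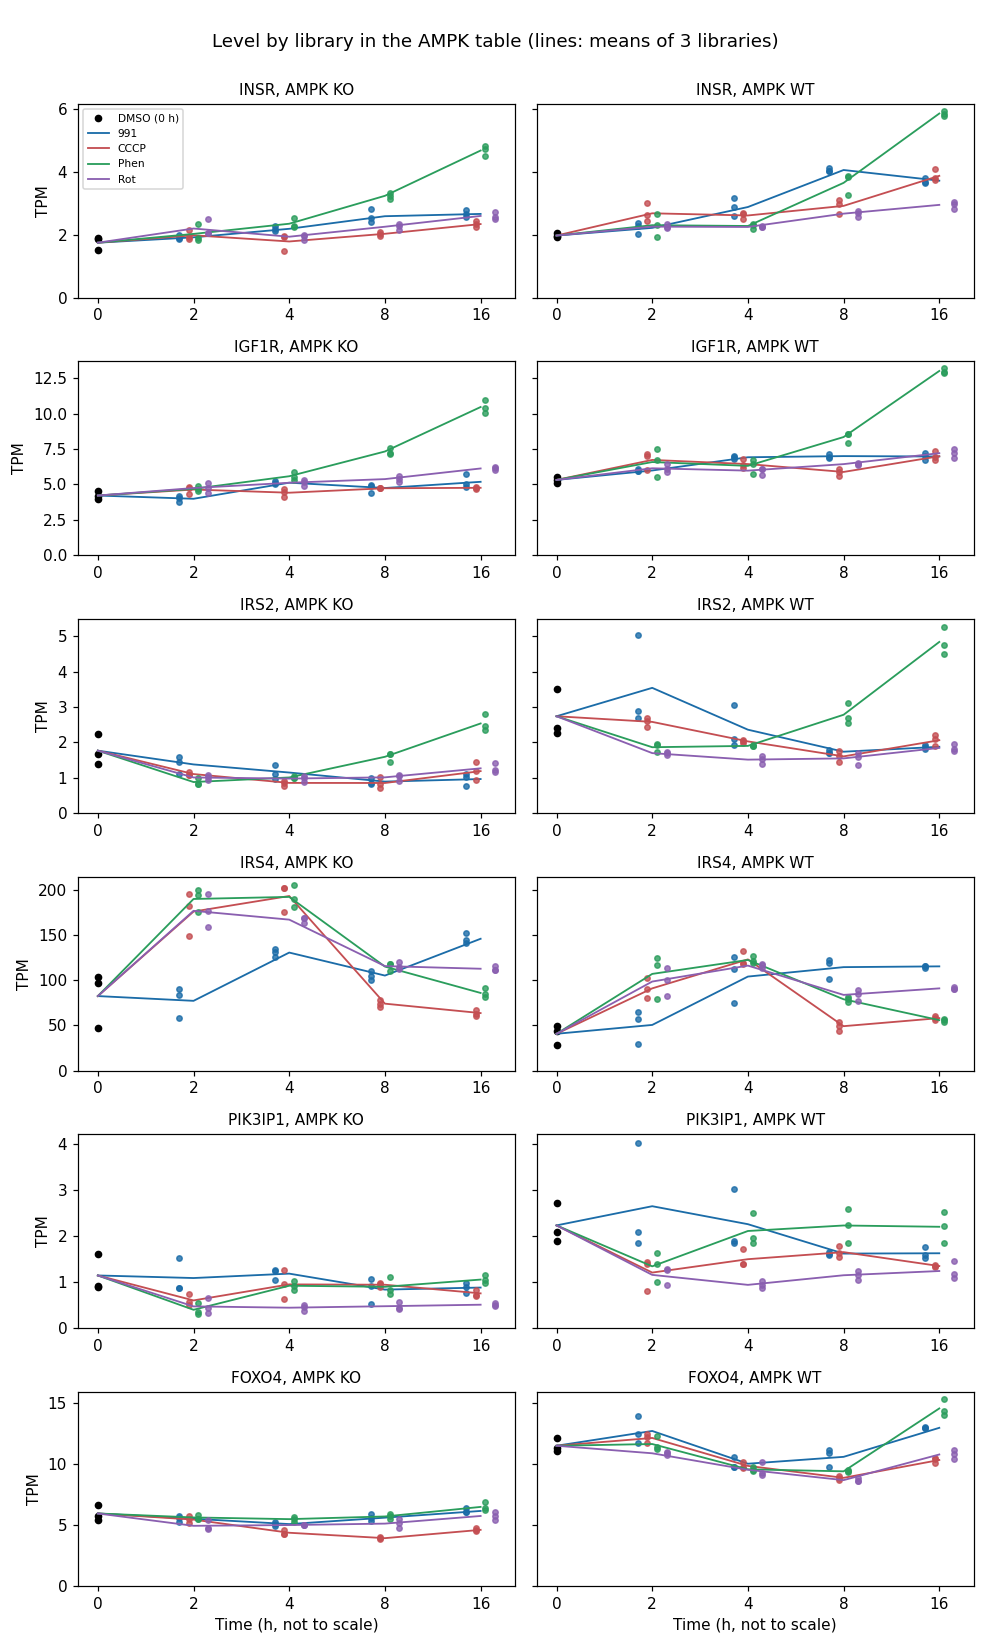
TPM of INSR, IGF1R, IRS2, IRS4, PIK3IP1 and FOXO4 in each library (points) by hours of treatment, with lines through the means of 3 libraries, with AMPK KO cells on the left, AMPK WT cells on the right and a colour for each of the 4 compounds, all starting from DMSO at 0 h. IRS4 peaks at 2 to 4 h with the poisons, INSR and IGF1R climb to 16 h with phenformin, and FOXO4 lies lower in AMPK KO cells throughout.

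IRS4 had the largest change of any member at a single time in the AMPK arms, 1.61 at 4 h of CCCP in AMPK WT cells, and its time course differed between 991 and the poisons. In AMPK KO cells IRS4 reached 141, 152 and 145 TPM at 16 h of 991, against 47.1, 104 and 96.9 TPM under DMSO (0.90 ± 0.17, adjusted p = 6.4e-06). In AMPK WT cells with 991 it held 29.5, 64.8 and 57.6 TPM at 2 h, which did not pass, then 74.4, 126 and 113 TPM at 4 h and 116, 116 and 114 TPM at 16 h, against 28.9, 49.8 and 43.7 TPM under DMSO. The 16 h difference was 1.51 ± 0.17 (adjusted p = 3.5e-12), with no overlap of the libraries in either arm. Replicate 1 was the lowest of the DMSO libraries in both arms and at 2 h of 991, so these differences depend on it. Without replicate 1, the 16 h difference with 991 was 0.56 in AMPK KO cells and 1.28 in AMPK WT cells, and both still passed.

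With the poisons IRS4 was already high at 2 h and fell back later. CCCP gave 176, 202 and 203 TPM in AMPK KO cells at 4 h (1.30 ± 0.17 over DMSO, adjusted p = 6e-10), and 118, 132 and 119 TPM in AMPK WT cells (1.61 ± 0.17, adjusted p = 7.2e-13). By 16 h of CCCP it lay at 63.3, 67.2 and 60.7 TPM in AMPK KO cells, above replicate 1 under DMSO and below the other DMSO libraries. This difference did not pass (-0.29, adjusted p = 0.13), but without replicate 1 it was -0.64 (adjusted p = 1.4e-09). In AMPK WT cells IRS4 lay at 55.9, 59.97 and 58.7 TPM at 16 h of CCCP, just above the DMSO libraries. Phenformin followed the same course: at 4 h IRS4 was higher by 1.29 in AMPK KO and 1.60 in AMPK WT cells, and at 16 h the differences were 0.14 (not passed) and 0.48. Rotenone left IRS4 higher at 16 h, by 0.53 ± 0.17 in AMPK KO cells and 1.18 ± 0.17 in AMPK WT cells. Without replicate 1, the 16 h value in AMPK KO cells turned to -0.19 with phenformin and was 0.18 with rotenone (adjusted p = 0.045), and in AMPK WT cells it was 0.28 with phenformin and 0.34 with CCCP. The phenformin and CCCP values in AMPK WT cells did not pass without replicate 3 (adjusted p = 0.063 and 0.05).

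In the ESRRA and TFEB/TFE3 tables IRS4 moved less. ESRRA KO cells had 199, 202 and 209 TPM at 16 h of 991, against 144, 152 and 153 TPM under DMSO (0.44 ± 0.07, adjusted p = 6.3e-06), and their WT cells 203, 195 and 192 TPM, against 125, 152 and 138 TPM (0.51 ± 0.07, adjusted p = 6e-07). DKO cells went the other way at 16 h, with 82.2, 85.6 and 84.2 TPM with 991 and 99.6, 97.7 and 111 TPM under DMSO (-0.29 ± 0.07, adjusted p = 0.0011, and 0.052 without replicate 3), while their WT cells rose (0.31 ± 0.07, adjusted p = 0.00032). Of the 10 arms, 991 left IRS4 higher in 8, lower in DKO cells and not past the test in cells with WT FNIP1 (0.41 ± 0.83, adjusted p = 0.82). In those cells the libraries did not overlap, at 175, 163 and 175 TPM with 991 and 134, 129 and 122 TPM under DMSO, and without the 2 SA5 libraries the same difference passed (adjusted p = 2.2e-06). A single SA5 library under DMSO held 1.99 TPM beside 121 and 116 TPM, and without the 2 libraries that stood apart the change in SA5 cells was 0.33 (adjusted p = 0.00015) in place of 2.10 (adjusted p = 0.043).

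IRS2, the adaptor that a FOXO factor can induce when insulin is scarce, rose early with 991 in most arms. At 2 h it was higher in DKO cells, at 3.73, 3.22 and 3.85 TPM against 2.05, 2.10 and 2.17 TPM under DMSO (0.56 ± 0.09, adjusted p = 4.7e-05), and in ESRRA KO cells, at 3.44, 3.33 and 3.15 TPM against 1.78, 1.74 and 1.87 TPM (0.62 ± 0.08, adjusted p = 1.1e-06). The libraries did not overlap in either arm. The 2 h change passed in SA5 (0.43), TFEB/TFE3 WT (0.46), ESRRA WT (0.44), siPGC1a (0.51) and siCont cells (0.29) too. The siCont value did not pass without replicate 1 or 3. The 2 h change did not pass in cells with WT FNIP1 (0.30) or in either AMPK arm, where the values were -0.21 in AMPK KO and 0.26 in AMPK WT cells. Without the 2 SA5 libraries that stood apart, it was 0.23 in SA5 cells (adjusted p = 0.044) and 0.30 in cells with WT FNIP1 (adjusted p = 0.0028), and both passed. By 4 to 24 h no IRS2 change passed in the ESRRA arms. TFEB/TFE3 WT cells stayed higher at 4, 8, 16 and 24 h, by 0.35, 0.21, 0.28 and 0.39. DKO cells were higher at 4 and 8 h (0.23 and 0.29). The siCont cells were higher at 4, 8 and 24 h (0.27, 0.25 and 0.24), and siPGC1a cells at 24 h (0.25). Of these later rises, only that of TFEB/TFE3 WT cells at 24 h passed without each replicate in turn.

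In the AMPK arms IRS2 then fell below DMSO. At 8 h of 991 it held 0.822, 0.986 and 0.850 TPM in AMPK KO cells (-0.54 ± 0.10, adjusted p = 7.7e-06) and 1.70, 1.71 and 1.79 TPM in AMPK WT cells (-0.44 ± 0.10, adjusted p = 0.00016), and the groups did not overlap. Under DMSO it held 2.23, 1.67 and 1.39 TPM in AMPK KO cells and 3.52, 2.27 and 2.41 TPM in AMPK WT cells. Rotenone lowered it at all 4 times in both arms, and CCCP at 4, 8 and 16 h and, in AMPK KO cells, also at 2 h. Replicate 1 was the highest DMSO library in both arms, and without it the rotenone value at 16 h in AMPK KO cells was -0.12 (adjusted p = 0.24) and the CCCP values in AMPK WT cells were -0.13 at 4 h and -0.16 at 16 h (adjusted p = 0.2 and 0.11). Without it the 8 h change with 991 in AMPK WT cells was -0.28 and still passed. Phenformin reversed course: IRS2 was lower at 2 h, at -0.55 in AMPK KO cells and -0.37 in AMPK WT cells, and higher at 16 h, by 0.36 ± 0.10 and 0.66 ± 0.10. The 16 h levels were 2.80, 2.33 and 2.46 TPM in AMPK KO cells (adjusted p = 0.001, and 0.074 without replicate 3) and 4.49, 5.26 and 4.76 TPM in AMPK WT cells (adjusted p = 2.8e-08). The IRS2 transcript of 6994 bases falls in the long class described above.

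IRS1 was low throughout. Phenformin gave 0.422, 0.429 and 0.488 TPM in AMPK KO cells at 4 h, against 0.849, 0.618 and 0.704 TPM under DMSO (-0.25 ± 0.05, adjusted p = 2e-05), and 0.565, 0.512 and 0.437 TPM in AMPK WT cells, against 0.826, 0.762 and 0.852 TPM (-0.27 ± 0.05, adjusted p = 6.1e-06). All treated libraries lay below all DMSO libraries. Under quantile normalization these differences turned positive (0.055 and 0.007), so the direction for IRS1 depends on the scaling. With 991 in the TFEB/TFE3 table it rose by 0.30 ± 0.09 in DKO cells and 0.42 ± 0.09 in WT cells at 24 h (adjusted p = 0.013 and 0.00037), and the DKO value did not pass without replicate 2 (0.13, adjusted p = 0.4).

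PIK3IP1, a membrane inhibitor of PI 3-kinase, fell with rotenone and CCCP, and with 991 it fell in AMPK WT cells and rose in 3 of the 10 arms at 16 h. With rotenone at 4 h it held 0.513, 0.453 and 0.369 TPM in AMPK KO cells (-0.55 ± 0.13, adjusted p = 0.00023) and 1.03, 0.861 and 0.931 TPM in AMPK WT cells (-0.73 ± 0.13, adjusted p = 2.5e-06). The DMSO libraries held at least 0.901 TPM in AMPK KO cells and 1.88 TPM in AMPK WT cells, so the groups did not overlap. Rotenone lowered it at all 4 times in both arms, and phenformin at 2 h alone, by -0.60 in AMPK KO and -0.46 in AMPK WT cells. CCCP lowered it at 2 h in AMPK KO cells and at 2, 4 and 16 h in AMPK WT cells, where the 4 h value did not pass without replicate 1 (-0.23, adjusted p = 0.068).

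With 991 PIK3IP1 was lower in AMPK WT cells at 16 h, at 1.51, 1.76 and 1.60 TPM against 2.71, 1.88 and 2.09 TPM under DMSO (-0.29 ± 0.13, adjusted p = 0.042), and no time passed in AMPK KO cells. That fall did not pass without replicate 1 (-0.16, adjusted p = 0.21), the DMSO library at 2.71 TPM, or without replicate 3 (adjusted p = 0.15). TFEB/TFE3 WT cells went the other way, to 2.12, 2.33 and 2.74 TPM at 16 h against 1.30, 1.23 and 1.16 TPM (0.60 ± 0.12, adjusted p = 8.2e-05). SA5 cells rose as well, to 1.12, 1.42 and 1.18 TPM against 0.482, 0.702 and 0.361 TPM (0.57 ± 0.15, adjusted p = 0.0048, and 0.55 without the 2 libraries that stood apart), which did not pass without replicate 3 (adjusted p = 0.075). ESRRA KO cells rose by 0.43 (adjusted p = 0.0028, and 0.062 without replicate 1). Over the 70 tests PIK3IP1 was higher in 18 and lower in 16 (5.12% to 80.1% of all genes passed per test).

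FOXO1, a forkhead factor that drives gluconeogenic genes in liver, fell in most courses. CCCP lowered it at all 4 times in both AMPK arms. At 2 h of CCCP it held 4.53, 4.51 and 4.41 TPM in AMPK KO cells (-0.54 ± 0.06, adjusted p = 6.6e-13), against 7.20, 6.94 and 6.71 TPM under DMSO. AMPK WT cells held 4.48, 4.79 and 4.31 TPM (-0.50 ± 0.06, adjusted p = 1.3e-11), against 6.81, 6.87 and 6.75 TPM. Neither arm's groups overlapped at any time of CCCP. With 991 FOXO1 fell at 16 h in AMPK KO (-0.30), AMPK WT (-0.18), DKO (-0.27), TFEB/TFE3 WT (-0.36) and ESRRA WT cells (-0.30), and the DKO value did not pass without replicate 2 (adjusted p = 0.051). In the FNIP1 arms it did not pass, at 0.20 in SA5 (adjusted p = 0.48) and -0.19 in FNIP1 WT cells (adjusted p = 0.69). Without the 2 SA5 libraries that stood apart, both were lower, at -0.26 (adjusted p = 0.0019) and -0.19 (adjusted p = 0.0089).

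FOXO1 rose in few courses. Phenformin at 16 h raised it by 0.12 ± 0.06 in AMPK KO cells (adjusted p = 0.038) and 0.23 ± 0.06 in AMPK WT cells (adjusted p = 0.00021), and the AMPK KO value did not pass when any 1 replicate number was left out. In siPGC1a cells the 16 h difference with 991 was 0.09 ± 0.08 and did not pass. In siCont cells 991 gave 4.70, 5.00 and 4.78 TPM at 16 h, against 3.64, 3.69 and 3.46 TPM under DMSO (0.34 ± 0.08, adjusted p = 0.00036), and under quantile normalization this was 0.069 and did not pass. Over the 70 tests FOXO1 was higher in 7 and lower in 36 (5.12% to 80.1% of all genes passed per test).

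FOXO3, the family member most often linked to AMPK, rose with phenformin. At 16 h it held 12.2, 12.3 and 11.98 TPM in AMPK KO cells, against 6.76, 7.51 and 7.29 TPM under DMSO (0.69 ± 0.05, adjusted p = 6.9e-22). AMPK WT cells held 14.2, 14.1 and 14.04 TPM, against 7.32, 7.58 and 7.64 TPM (0.83 ± 0.05, adjusted p = 2.3e-26). The libraries were far apart in both arms, and its transcript of 7308 bases falls in the long class described above. With 991 the FOXO3 difference at 16 h was -0.07 ± 0.05, not passed, in AMPK KO cells and 0.15 ± 0.05 in AMPK WT cells. In siPGC1a and siCont cells 991 raised it by 0.39 ± 0.07 and 0.44 ± 0.07 at 16 h, where the medians over all genes were 0.14 and 0.17. FOXO3 was also higher in TFEB/TFE3 WT (0.31, adjusted p = 9.2e-05) and ESRRA WT cells (0.15, adjusted p = 0.045). The ESRRA WT value did not pass when any 1 replicate number was left out.

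FOXO4, the X-linked family member, differed between the AMPK genotypes before any treatment. Under DMSO it held 6.65, 5.44 and 5.77 TPM in AMPK KO cells, against 12.2, 11.3 and 11.1 TPM in AMPK WT cells. CCCP lowered it to 4.00, 3.94 and 3.83 TPM at 8 h in AMPK KO cells (-0.49 ± 0.05, adjusted p = 7.5e-14) and to 8.87, 8.73 and 9.05 TPM in AMPK WT cells (-0.34 ± 0.05, adjusted p = 1.2e-08). With 991 it rose at 16 h in siPGC1a (0.41 ± 0.08), siCont (0.39 ± 0.08), DKO (0.26 ± 0.06) and AMPK WT cells (0.16 ± 0.05), and fell in TFEB/TFE3 WT cells (-0.29 ± 0.06). The medians over all genes in siPGC1a and siCont cells were 0.14 and 0.17. The AMPK WT value did not pass without replicate 3 (adjusted p = 0.061). In SA5 cells 0.41 (adjusted p = 0.032) became 0.14 (adjusted p = 0.17) without the 2 libraries that stood apart.

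The poisons were then set against 991 at matched times in AMPK WT cells, a comparison in which DMSO does not enter. Doses are not given, so the values describe these treatments. At 16 h phenformin was higher than 991 for 8 of 9 members and lower for 1, where 71% of all genes passed. CCCP was lower than 991 for 4 members and higher for 0 (31.4% of all genes passed), and rotenone was lower for 2 and higher for 0 (27.9%). Phenformin exceeded 991 by 1.02 ± 0.10 for IRS2 (adjusted p = 2.3e-14), 0.81 ± 0.06 for IGF1R (8.8e-22), 0.68 ± 0.05 for FOXO3 (2.4e-21) and 0.54 ± 0.06 for INSR (2.8e-12). The median over all genes was 0.01. These genes all have transcripts of the long class described above, which rose with phenformin against DMSO, and the part of length was not tested.

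IRS4 changed sides over time. At 2 h it was higher than with 991 by 0.91 ± 0.17 with CCCP, 1.12 ± 0.17 with phenformin and 1.01 ± 0.17 with rotenone, and all 3 passed. At 4 h no difference passed, and at 16 h it was -0.98 ± 0.17 with CCCP, -1.03 ± 0.17 with phenformin and -0.34 ± 0.17 with rotenone, the last not past the test. IRS1 was lower than with 991 at 2, 4 and 8 h for every poison, by -0.20 to -0.45. PIK3IP1 was lower at 2 h for every poison, by -0.60 to -0.71. For INSR, CCCP and 991 differed by 0.05 ± 0.06 at 16 h (adjusted p = 0.62).

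**Figure D4:**
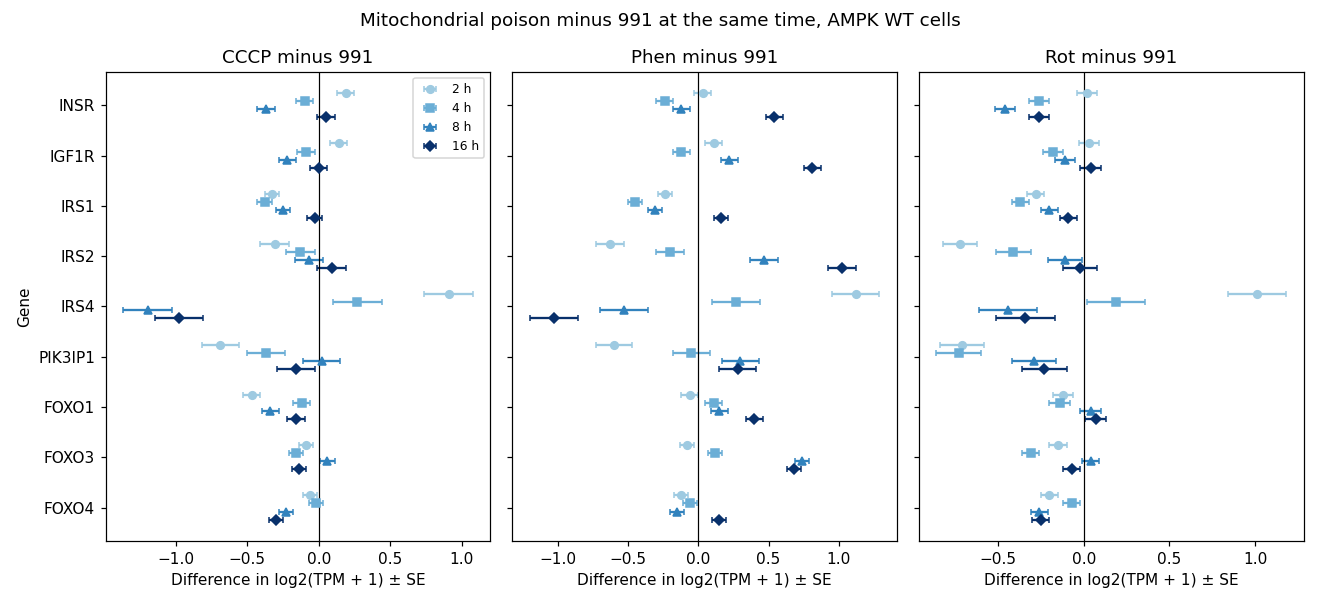
Difference of mean log2(TPM + 1) ± SE between each poison and 991 (x axis, 1 panel a poison) in AMPK WT cells for the 9 genes (y axis), with a symbol for each of 2, 4, 8 and 16 h (n = 3 libraries a group). IRS4 lies right of the zero line at 2 h and left of it at 16 h for all 3 poisons, and phenformin at 16 h lies right of it for all genes but IRS4.

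Genotypes were compared under DMSO. AMPK KO cells differed from AMPK WT cells in 5 of 9 members, where 38.9% of all genes passed. FOXO4 was lower (-0.85 ± 0.05, adjusted p = 8.1e-25), and it passed without each replicate in turn. IRS4 was higher (0.95 ± 0.17, adjusted p = 4.1e-06), with 47.1, 104 and 96.9 TPM in AMPK KO cells and 28.9, 49.8 and 43.7 TPM in AMPK WT cells, which overlap by 1 library. PIK3IP1 (-0.60 ± 0.13, adjusted p = 0.00013), IRS2 (-0.43 ± 0.10, adjusted p = 0.00043) and IGF1R (-0.28 ± 0.06, adjusted p = 3.9e-05) were lower. INSR differed by -0.12 ± 0.06 and did not pass (adjusted p = 0.12). With only the 2 DMSO groups in the fit, IRS2 and IRS4 no longer passed.

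DKO cells differed from their WT cells in 6 of 9 members, with 51.3% of all genes past the test. IGF1R held 8.98, 8.93 and 9.44 TPM in DKO cells, against 5.10, 5.89 and 6.45 TPM in WT cells (0.57 ± 0.06, adjusted p = 1.4e-09). INSR (0.39 ± 0.08, adjusted p = 0.00026), IRS2 (0.42 ± 0.09, adjusted p = 0.00024), FOXO3 (0.30 ± 0.06, adjusted p = 0.00015) and FOXO1 (0.27 ± 0.08, adjusted p = 0.0072) were also higher. FOXO4 was lower, at 9.14, 8.32 and 9.61 TPM in DKO cells and 14.01, 12.9 and 13.1 TPM in WT cells (-0.52 ± 0.06, adjusted p = 2.9e-08). In this comparison the median over all genes was 0.11, and transcripts of 5000 bases or more had a median of 0.22. FOXO1 did not pass under median-ratio scaling or quantile normalization.

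SA5 cells differed from cells with WT FNIP1 in 2 of 8 members (10.3% of all genes passed), IGF1R at -0.79 ± 0.25 (adjusted p = 0.046) and FOXO4 at -0.50 ± 0.15 (adjusted p = 0.042). Without the 2 libraries that stood apart, IGF1R was at -0.31 (adjusted p = 0.0027) and FOXO4 at -0.22 (adjusted p = 0.077). The siPGC1a cells differed from siCont cells in 1 of 8 members (24.2%), FOXO4 at -0.22 ± 0.08 (adjusted p = 0.043), which was lost without replicate 2 or 3. ESRRA KO cells differed from their WT cells in 0 of 8 members by limma (21.5%), and 0 passed an unadjusted p of 0.05.

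Whether a response differed between genotypes was tested directly, as the change in the altered arm minus that in its control over all times. With 991 the response differed between AMPK KO and AMPK WT cells for 4 of 9 members (32.1% of all genes): INSR, FOXO3, FOXO4 and IRS4. The rise of INSR was smaller in AMPK KO cells, with a difference of changes of -0.38 ± 0.09 at 8 h (adjusted p = 0.00091) and -0.25 ± 0.09 at 16 h (adjusted p = 0.04). The rise of IRS4 was smaller at 8 h (-1.07 ± 0.24, adjusted p = 0.00076), and FOXO3 responses differed at 2, 4 and 16 h (-0.30, -0.29 and -0.22). For FOXO4 no single time passed. Without replicate 3, INSR at 8 h was at -0.30 and IRS4 at -0.95, and neither passed, nor did the INSR value at 16 h or the 3 FOXO3 values. Without replicate 1 the IRS4 difference passed at 2, 4, 8 and 16 h (-0.59, -0.92, -1.25 and -0.72). Without replicate 2 it passed at 8 h alone (-1.01, adjusted p = 0.037).

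With CCCP the response differed for 4 of 9 members (52% of all genes), INSR, IGF1R, IRS4 and FOXO3. INSR differed by -0.26 ± 0.09, -0.25 ± 0.09 and -0.43 ± 0.09 at 4, 8 and 16 h, and the 16 h difference passed without each replicate in turn. FOXO3 differed at 4 h by -0.32 ± 0.07 (adjusted p = 0.00015), with 5.47, 5.47 and 5.59 TPM in AMPK KO cells below all their DMSO libraries and 7.57, 7.18 and 7.65 TPM in AMPK WT cells overlapping theirs. IRS4 differed at 16 h (-0.83 ± 0.24, adjusted p = 0.0065). Without replicate 3 the INSR values at 4 and 8 h and the IRS4 value at 16 h did not pass. With phenformin 1 member passed (15.9% of all genes), FOXO4, at -0.21 ± 0.07 at 16 h, which did not pass when any 1 replicate number was left out, and with rotenone FOXO4 alone passed over all times (3.58%). The response of INSR to phenformin differed by -0.15 ± 0.09 at 16 h between the genotypes and did not pass (adjusted p = 0.25).

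The response to 991 differed between DKO cells and their WT cells for 4 of 9 members (26.8% of all genes): FOXO4, IRS4, PIK3IP1 and FOXO3. At 2 h FOXO4 was higher in both arms, by 0.25 in DKO and 0.22 in WT cells, and neither value passed without replicate 1 or 3. From 4 h on its changes had opposite signs in the 2 arms, though the DKO value at 4 h (0.14) did not pass. At 8 h it held 10.6, 10.8 and 10.97 TPM in DKO cells, above their DMSO libraries at 9.14, 8.32 and 9.61 TPM (0.24 ± 0.06, adjusted p = 0.0019). In WT cells it held 8.92, 9.23 and 9.55 TPM, below their DMSO libraries at 14.01, 12.9 and 13.1 TPM (-0.48 ± 0.06, adjusted p = 1.1e-07). The responses differed by 0.34, 0.72, 0.55 and 0.43 at 4, 8, 16 and 24 h, and at 8, 16 and 24 h this passed without each replicate in turn. The levels of the 2 genotypes overlapped at 16 h, at 11.1, 10.53 and 11.3 TPM in DKO cells and 10.7, 10.3 and 11.1 TPM in WT cells.

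IRS4 responses were lower in DKO cells at all 5 times, by -0.34 to -0.59, and at 16 and 24 h this passed without each replicate in turn. At 24 h IRS4 held 94.1, 93.01 and 88.2 TPM in DKO cells and 129.98, 127 and 137 TPM in WT cells. FOXO3 responses differed at 16 h (-0.27 ± 0.09, adjusted p = 0.043) and 24 h (-0.35 ± 0.09, adjusted p = 0.0068), and neither passed without replicate 1 or 3. PIK3IP1 held 1.46, 1.38 and 1.41 TPM in DKO cells at 24 h, against 2.74, 2.40 and 2.07 TPM in WT cells, and its response differed by -0.49 ± 0.17 (adjusted p = 0.046), which was lost when any 1 replicate number was left out. INSR responses differed by no more than -0.16 ± 0.12 at any time in this table, and none passed.

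**Figure D5:**
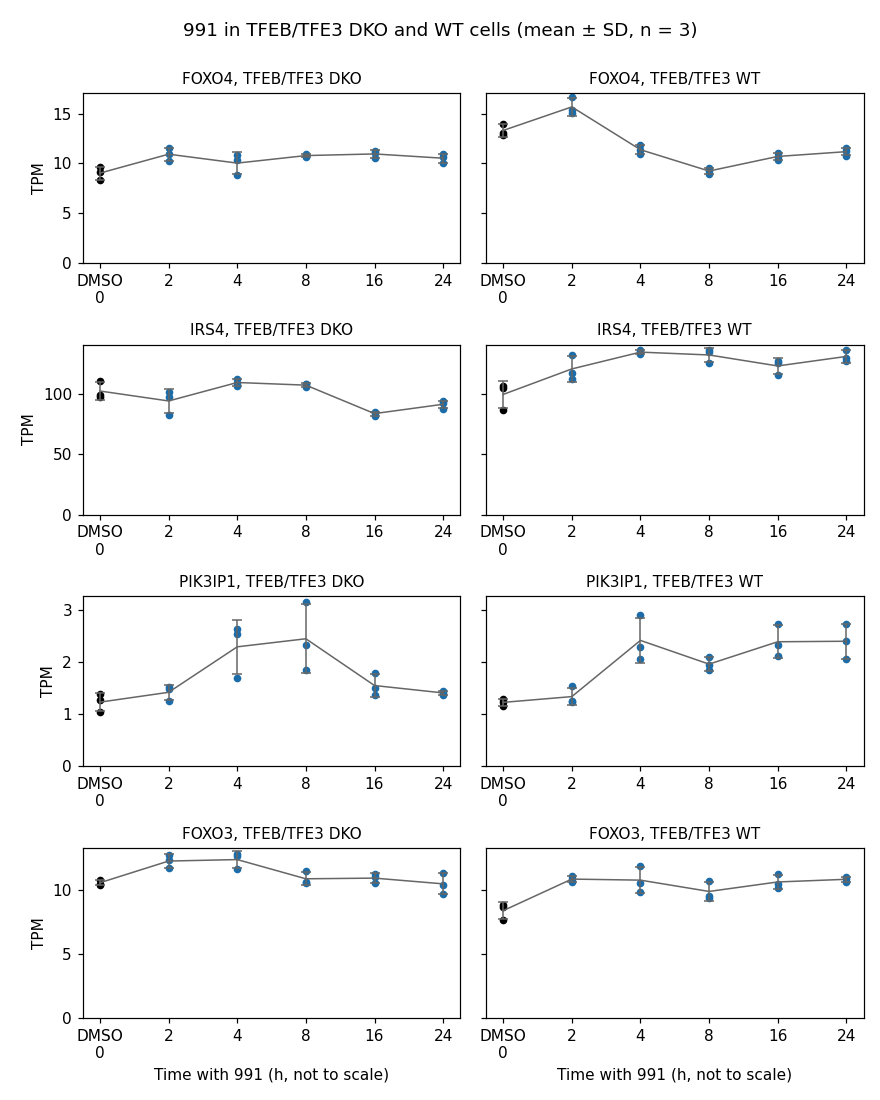
Mean TPM ± SD (n = 3) of FOXO4, IRS4, PIK3IP1 and FOXO3 by hours of 991, with DKO cells on the left and WT cells on the right, starting from DMSO at 0 h. FOXO4 lies below DMSO at 8 h in WT cells and above it in DKO cells, and IRS4 at 16 h lies below DMSO in DKO cells and above it in WT cells.

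The response to 991 differed between ESRRA KO and WT cells for IGF1R alone among 8 members over all times (6.88% of all genes), and no single time passed. This call (adjusted p = 0.043) was lost with a replicate block, under median-ratio scaling, under quantile normalization, without a filter and when any 1 replicate number was left out. At 4 h IGF1R held 5.73, 6.04 and 6.45 TPM in ESRRA KO cells, which overlap their DMSO libraries, and 7.43, 7.56 and 7.78 TPM in WT cells, which do not (difference of changes -0.26 ± 0.08, adjusted p = 0.065). Between SA5 cells and cells with WT FNIP1, 0 of 8 members differed by limma, as did 0% of all genes, and 0 passed an unadjusted p of 0.05. Without the 2 SA5 libraries that stood apart the count was also 0 of 8 (0.278% of all genes), with 0 at an unadjusted p of 0.05. Between siPGC1a and siCont cells 0 of 8 differed (0.56% of all genes) and 1 passed an unadjusted p of 0.05.

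Other genes of the pathway were taken as 6 lists, and the share of all genes past the test is given with the counts. A count near that share says little about a list. With phenformin at 16 h, 15 of 26 tested FOXO target genes were higher and 5 lower in AMPK KO cells, where 78.8% of all genes passed. Their median was 0.38, beside 0.01 over all genes. In AMPK WT cells 18 were higher and 5 lower (80.1% of all genes passed), with a median of 0.51 beside 0.07. BBC3, a pro-apoptotic BH3 protein, reached 32.7 ± 1.59 TPM in AMPK KO cells (SD, n = 3), against 3.69 ± 0.777 TPM under DMSO, and 39.6 ± 1.28 TPM in AMPK WT cells, against 5.57 ± 1.79 TPM (log2 differences 2.86 and 2.66). GADD45A, a DNA damage and arrest gene, rose by 1.93 ± 0.11 in AMPK KO cells. With 991 at 16 h the same list had 8 higher and 10 lower in AMPK KO cells (61.9% of all genes passed). In AMPK WT cells 11 were higher and 9 lower (68.8%). The medians were -0.06 and -0.01, beside 0.03 and 0.07 over all genes. TXNIP, an inhibitor of glucose uptake, fell with CCCP and rotenone in both AMPK arms (-1.03 to -1.96) and rose with 991 at 16 h in 9 of 10 arms. The exception was AMPK KO cells, at 15 ± 0.615 TPM with 991 and 18.8 ± 8.06 TPM under DMSO (-0.24 ± 0.17, adjusted p = 0.2), and their change differed from that in AMPK WT cells (-0.69 ± 0.23, adjusted p = 0.036). The rises were 0.44 in AMPK WT, 1.74 in SA5 and 1.03 in FNIP1 WT cells (1.35 and 1.03 without the 2 SA5 libraries), and 1.60 in DKO, 2.26 in TFEB/TFE3 WT, 1.45 in ESRRA KO, 1.15 in ESRRA WT, 1.30 in siPGC1a and 1.54 in siCont cells.

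Among 15 tested other receptors, adaptors and their inhibitors, 7 were higher and 2 lower with 991 at 16 h in AMPK KO cells (61.9% of all genes passed). In AMPK WT cells 10 were higher and 3 lower (68.8%). GRB10, an adaptor that binds and inhibits INSR and IGF1R, was higher in all 8 courses of the AMPK table. It reached 40.9 ± 1.16 TPM with phenformin in AMPK KO cells, against 8.87 ± 2.61 TPM under DMSO, and 46.1 ± 0.66 TPM in AMPK WT cells, against 9.39 ± 1.02 TPM (2.12 ± 0.12 and 2.18 ± 0.12). Of 11 PI 3-kinase and lipid phosphatase genes, 8 were higher and 1 lower with phenformin in AMPK KO cells (78.8% of all genes passed). In AMPK WT cells 9 were higher and 1 lower (80.1%). Of 21 genes of the AKT arm and its brakes, 13 were higher and 4 lower with phenformin in AMPK KO cells (78.8%). In AMPK WT cells 11 were higher and 4 lower (80.1%). TRIB3, a pseudokinase that binds AKT, reached 92.3 ± 1.61 TPM with phenformin in AMPK WT cells, against 15.8 ± 0.559 TPM under DMSO (2.47 ± 0.07). SGK1, a kinase that also phosphorylates FOXO3, was lower in all 8 courses of the AMPK table (-1.17 to -1.77).

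Of 15 FOXO regulators, 9 were higher and 3 lower with phenformin in AMPK KO cells (78.8% of all genes passed). In AMPK WT cells 9 were higher and 2 lower (80.1%). PRMT1, an arginine methyltransferase that acts on FOXO1, fell to 191 ± 1.32 TPM in AMPK WT cells, against 295 ± 6.45 TPM under DMSO (-0.63 ± 0.04). Of the ligands and binding proteins 5 of 10 were tested in the AMPK table. In either arm 1 was higher and 2 lower with phenformin (78.8% and 80.1% of all genes passed). Under DMSO, 4 of these 5 were lower in AMPK KO than in AMPK WT cells, where 38.9% of all genes passed. Among them was IGFBP7, a binding protein, at 0.444 ± 0.114 TPM in AMPK KO cells and 1.60 ± 0.0911 TPM in AMPK WT cells. In the same comparison 3 of 26 FOXO target genes were higher and 10 lower. In DKO cells under DMSO 15 of 26 were higher and 2 lower, with a median of 0.22 beside 0.11 over all genes. There 11 of 15 FOXO regulators were higher, and 51.3% of all genes passed in either direction.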

How the data were processed

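PolyA RNA of 240 HEK 293T libraries had been sequenced, and the deposited tables give TPM values made by the authors, one table an experiment. FastQC, STAR, HOMER and the GRCh38 build are named per the submitters' processing notes, with no versions, and the counting settings are not given in the sources used here. Column sums over the 27234 listed genes were 396341 to 449208 TPM, and the depth of the libraries is unknown, so no counting interval is given.

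Values were taken as log2(TPM + 1), after keeping genes with at least 1 TPM in 3 libraries (13317 to 13746 genes a table). Limma 3.58.1 (R 4.3.3, with an intensity trend) took every library of a table into a single fit, with 1 mean a group and no replicate block. Adjusted p-values are Benjamini-Hochberg over all genes tested, with a threshold of 0.05. Courses and response differences were tested over all times with limma's moderated F and at each time. Tests were run within a table, since the tables may have been made separately. The fit was tested on simulated data: of 77 genes changed by 0.5 (log2) with 991 in AMPK WT cells, 87% were called, with 10 calls among 13417 unchanged genes. For the same change the share called was 41.2% in FNIP1 WT, 73.4% in ESRRA WT, 82.5% in TFEB/TFE3 WT and 85.5% in siCont cells. A missing call in the FNIP1 table thus says less than one elsewhere. In the simulated AMPK WT course 13417 of 13617 genes were unchanged, while in the data 68.8% of genes passed at 16 h. The simulated shares and false calls may therefore not carry over to the calls above. Figures were drawn with matplotlib 3.10.9 (Python 3.11.15).

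The members and the gene lists were chosen with earlier results of these data known. Changes of all 9 members are described, though not every member is named in every comparison. Other pathway genes were named by the size of their change: up to 3 rises and 3 falls a course in the AMPK table at 16 h, and up to 2 and 2 elsewhere, among genes past the test whose libraries lay on 1 side of all DMSO libraries. Alternatives tried were another pseudocount (0.1), no filter, median-ratio scaling, quantile normalization, a replicate block, fits with only the groups compared, each replicate left out in turn, the AMPK WT libraries whose labels disagree left out and, chosen after seeing the data, 2 SA5 libraries left out.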

Additional observations from a re-analysis of the deposited data

Results flagged for a closer look

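Responses that differed between genotypes by the test of the difference itself, over all times, are given here with limma's adjusted p. With 991, AMPK KO and AMPK WT cells differed for FOXO3 (adjusted p = 0.0013), INSR (adjusted p = 0.0013), IRS4 (adjusted p = 0.0045) and FOXO4 (adjusted p = 0.012). With CCCP they differed for FOXO3 (adjusted p = 0.00014), INSR (adjusted p = 0.00081), IRS4 (adjusted p = 0.015) and IGF1R (adjusted p = 0.026). FOXO4 also differed with phenformin (adjusted p = 2.6e-05) and with rotenone (adjusted p = 0.018).

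With 991, DKO cells and their WT cells differed for FOXO4 (adjusted p = 8.2e-07), IRS4 (adjusted p = 0.00055), PIK3IP1 (adjusted p = 0.011) and FOXO3 (adjusted p = 0.036). ESRRA KO cells and their WT cells differed for IGF1R (adjusted p = 0.043), a call that was lost with a replicate block, under median-ratio scaling, under quantile normalization, without a filter and when any 1 replicate number was left out. The shares of all genes that passed stand beside the counts in the report.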

How the results depend on the processing

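Of 9743 values of single genes under the alternatives, 8814 kept their direction and side of the threshold, 678 no longer passed, 226 newly passed and 25 reversed. Counts of members that moved by over 1.5 times follow. With only the groups compared in the fit, members that differed under DMSO went to 3 for AMPK KO, 0 for SA5 and 0 for siPGC1a. In the same fits, differing responses went to 2 for 991, 2 for CCCP and 0 for rotenone, and changed members to 6 in FNIP1 WT and 1 in SA5 courses. Median-ratio scaling and quantile normalization gave 2 and 2 rotenone responses, 2 and 3 members in the FNIP1 WT course, 1 and 1 SA5 differences under DMSO, 0 and 0 ESRRA responses, and 5 and 5 members in the siCont course. Without a filter, SA5 and siPGC1a differences and ESRRA responses were 0, 0 and 0, and a pseudocount of 0.1 left 1 SA5 difference. Without the AMPK WT libraries whose labels disagree, 2 phenformin responses passed. Without the 2 SA5 libraries, 7 members passed in the FNIP1 WT course and 6 in the SA5 course. With a replicate block, 7 SA5 differences passed, and 0 siPGC1a differences and 0 ESRRA responses did. Same-numbered libraries deviated together weakly in the AMPK table (mean r 0.074 in AMPK KO and 0.097 in AMPK WT cells, against -0.036 and -0.047 for other numbers) but not in every pair (lowest r -0.14 and -0.19), so the numbers were not taken as pairs.

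Of 386 calls of members against DMSO at single times, 141 were lost in at least 1 of the 3 fits without a replicate number, from 8 of 51 for IRS4 to 15 of 28 for IRS1. With 1 replicate number left out, differing responses ranged over 1 to 4 for 991 in AMPK cells, 0 to 5 for CCCP, 0 to 4 for phenformin, 0 to 2 for rotenone, 1 to 2 in the TFEB/TFE3 table and 0 in the ESRRA table. Changed members ranged over 0 to 5 in the FNIP1 WT course, 0 to 5 in the SA5 course and 4 to 8 in the ESRRA KO course, and differences under DMSO over 0 to 1 for SA5 and 0 to 1 for siPGC1a.

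Quantile normalization reversed IRS1 with CCCP in AMPK KO cells (0.04 at 2 h, 0.05 at 4 h) and AMPK WT cells (0.012 at 4 h), with phenformin in AMPK KO cells (0.026, 0.055 and 0.142 at 2, 4 and 8 h) and AMPK WT cells (0.059, 0.007 and 0.1), and with rotenone in AMPK WT cells (0.007 at 4 h). It also reversed FOXO3 with CCCP in AMPK WT cells at 16 h (-0.164), FOXO1 with 991 in siPGC1a cells at 24 h (-0.053) and INSR, phenformin minus 991, at 4 h (0.008). In SA5 cells with 991 it reversed FOXO1 (-0.374 and -0.32 at 4 and 16 h), FOXO4 (-0.232 and -0.106) and INSR (-0.02 at 4 h). With 1 replicate number left out, IRS4 with phenformin in AMPK KO cells at 16 h ranged over -0.186 to 0.304, and FOXO1 with 991 in SA5 cells over -0.214 to 0.537 at 2 h, -0.348 to 0.444 at 4 h and -0.266 to 0.439 at 16 h, with each lowest value without replicate 1. Without the 2 SA5 libraries these FOXO1 values were -0.181, -0.299 and -0.263. The cause of these reversals was not tested. Scaling moved the median of all genes by -0.368 to 0.301 in the FNIP1 table and by -0.161 to 0.027 in the PGC1A table. Depth is unknown, and levels near 1 TPM (IRS1, PIK3IP1) are the least certain.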

Other observations

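Over the 34 group means of the AMPK table, the genes whose log2(TPM + 1) ran most like each member are given as a description. The groups share DMSO controls, and Pearson's r is printed with no test. They also pool AMPK KO and AMPK WT cells, so in r a difference between genotypes and a shared response to compounds cannot be told apart. INSR ran most like KIF3C (0.938), KHNYN (0.937) and VSIG10 (0.933), and IGF1R like MCC (0.943), XPR1 (0.943) and CSNK1G3 (0.941). IRS2 ran most like ARHGAP20 (0.951), CDKN1B (0.926) and BMF (0.92), and IRS4 like PWWP2A (0.842), ACOT7 (0.804) and EPB41L2 (0.796). IRS1 ran most like ARHGEF17 (0.917) and PIK3IP1 like SOCS2 (0.923). FOXO4 ran most like LTBP3 (0.968), FOXO3 like MNT (0.948) and FOXO1 like FAM46C (0.857). Among the members, r was 0.895 for INSR with IGF1R, 0.868 for FOXO3 with IGF1R, 0.82 for FOXO4 with IRS2 and -0.641 for IRS2 with IRS4.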
